A study of Rattus norvegicus with 48 samples.

Results

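The pooled effect of ischemic postconditioning was read from liver biopsies of 40 of the 48 rats of the study, 1 Affymetrix array per rat and 14506 genes per array. The 40 arrays came from the 4 ischemic groups of 10 rats each, taken from the sample titles. The mean of the 2 postconditioned groups (IPO and IPC+IPO, 20 arrays) was set against the mean of the 2 groups without postconditioning (IRI and IPC, 20 arrays). All animals were male Wistar rats of 300 to 350 g under Hypnorm and midazolam anaesthesia. All had a midline laparotomy, and the biopsy came from the right lobe. In IRI rats the whole liver was ischemic for 30 min and reperfused for 30 min. In IPC (preconditioned) rats a shorter ischemia of 10 min, then reperfusion of 10 min, came ahead of the same insult. In IPO (postconditioned) rats flow was let in and stopped again 3 times after the same ischemia, each phase lasting 30 sec. IPC+IPO rats had both interventions. The 8 sham rats had no ischemia and give a reference level here. All biopsies of the ischemic groups came at a single, early time, so each level is a state at 30 min of reperfusion.

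When blood returns to an ischemic liver, oxidants, calcium overload and swelling of mitochondria injure hepatocytes and sinusoidal endothelium. Postconditioning interrupts that return with brief stops of flow; it is known to act through survival kinases and the mitochondrial permeability transition. Misfolded proteins release the transcription factor HSF1 from chaperones, and HSF1 then drives heat shock genes, while free zinc activates MTF1, which drives metallothionein genes.

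No gene passed the test of the pooled postconditioning effect. At a Benjamini-Hochberg adjusted p under 0.05 in limma, 0 of 14506 genes (0%) were called, and 3551 (24.5%) had an unadjusted p under 0.05, of which 1854 (12.8%) were higher and 1697 (11.7%) lower in the postconditioned livers. The smallest adjusted p was 0.0989, and 295 genes shared it. Differences were small: 23 genes lay beyond 1.5-fold, 19 of them higher, and the median standard error of a pooled log2 difference was 0.084. Of the 20 genes of smallest p 18 were higher, among them Rpf2, Hyal1, Kdsr, Cers2, Hspd1 and Dnaja1. Mt1 and Mt2A, further down the ranking, were lower. The descriptions that follow are therefore of differences that did not pass the test. Counts of list members at an unadjusted p under 0.05 are read beside these shares of all genes, 12.8% higher and 11.7% lower.

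Arrays differed in spread and in their correlation with each other. Alb, the albumin gene, lay between 12.80 and 13.39 on all 48 arrays, so each biopsy carried this hepatocyte transcript at a high level. IRI animal 7 and IPC+IPO animal 38 stood apart from the other arrays, with a mean correlation with them of 0.888 and 0.933, against 0.955 and 0.966 for the next lowest of their groups. Their spread, the SD of log2 levels among an array's genes, was also the lowest (1.537 and 1.498). Spread averaged 1.882 in the postconditioned and 1.809 in the other ischemic arrays, a difference of 0.073 (two-sided permutation p = 0.044, shuffled within preconditioning). That p was above 0.05 in 25 of the 40 fits that left out 1 array and ran from 0.00265 (without IPC+IPO animal 38) to 0.0779 (without IPC animal 12). The difference was 0.140 for IPO against IRI and 0.007 for IPC+IPO against IPC. Sham arrays, with no ischemia, averaged 1.723, below the mean of each ischemic group. Of the 10 ischemic arrays of lowest spread, 5 were IRI, 2 IPC, 1 IPO and 2 IPC+IPO.

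**Figure D1:**
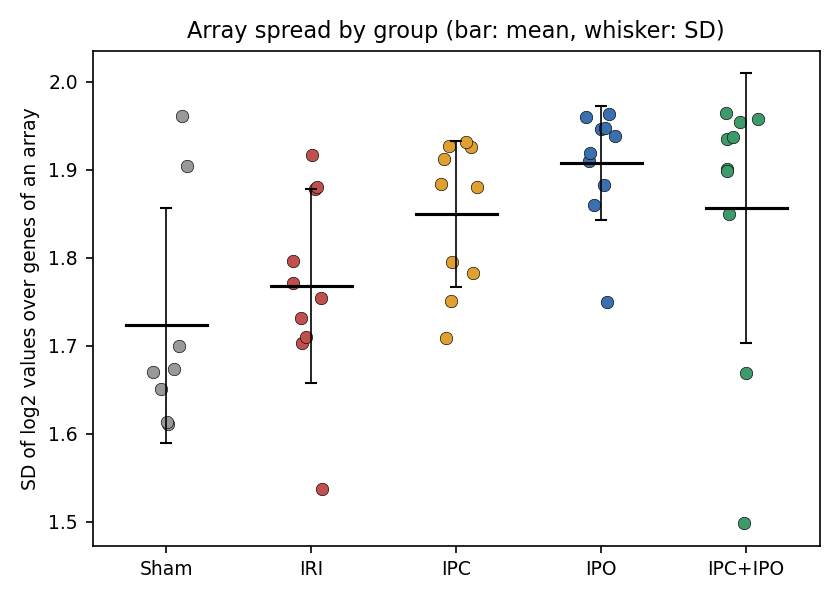
Spread of each array, the SD of log2 levels among its genes (y axis, log2 units), by group (x axis), 1 point per rat, with the group mean as a bar and the SD as a whisker. IPO arrays averaged 1.908 and IRI arrays 1.768, while IPC+IPO (1.857) and IPC (1.850) lay close together, and the lowest points are IPC+IPO animal 38 and IRI animal 7.

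Across genes the pooled effect went with spread, as did IPO against IRI, but hardly IPC+IPO against IPC. Genes were split in 3 equal sets by mean level: the median pooled log2 difference was -0.10 in the lowest set, -0.01 in the middle set and 0.14 in the highest set. For IPO against IRI they were -0.19, -0.02 and 0.28, and for IPC+IPO against IPC -0.003, 0.001 and 0.002. With array spread as a covariate, the 3 pooled medians were -0.02, -0.002 and -0.007. Across the 14506 genes the pooled difference correlated with each gene's slope on spread at r = 0.813, a description over genes that share the same arrays. For IPO against IRI this r was 0.859, and for IPC+IPO against IPC 0.068. In the covariate fit 1156 genes (7.97%) had an unadjusted p under 0.05, 513 higher (3.54%) and 643 lower (4.43%), and 1 gene was called. What spread reflects in these biopsies was not tested. In whole biopsies, fewer cells of a type and less RNA per cell cannot be told apart.

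Rpf2 had the smallest p of all genes. It brings the 5S RNA particle into the large ribosomal subunit, and it ran from 5.15 over a median of 6.14 to 6.42 in IRI and from 6.10 over 6.41 to 6.65 in IPC. It ran from 6.47 over 6.72 to 7.14 in IPO and from 6.17 over 6.58 to 6.95 in IPC+IPO. All 10 IPO animals lay above every IRI animal, and 12 of the 20 postconditioned animals lay above every animal without postconditioning. The pooled difference was 0.445 ± 0.091 (SE), 1.36-fold, with a 95% interval of 0.26 to 0.63 and an adjusted p of 0.0989. Sham livers had a median of 6.08, below the medians of all 4 ischemic groups. Other nucleolar genes are given singly, since no list of them was tested. Rbm34, an RNA-binding protein of the nucleolus, was higher by 0.38 ± 0.09. Ftsj3 and Utp25, further ribosome biogenesis factors, were higher by 0.37 ± 0.09 and 0.29. Ncl, nucleolin, was higher by 0.59 ± 0.18. Utp25 and Ncl were picked after their values were seen.

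Kdsr and Cers2, both of ceramide synthesis, were also among the genes of smallest p. Kdsr makes dihydrosphingosine, an early step of ceramide synthesis. It ran from 5.49 over 6.74 to 7.03 in IRI and from 6.58 over 6.97 to 7.22 in IPC. It ran from 6.92 over 7.18 to 7.58 in IPO and from 6.84 over 7.22 to 7.62 in IPC+IPO. The medians of both postconditioned groups were above the sham median of 7.04, and 19 of 20 postconditioned animals exceeded the median of the animals without postconditioning. Pooled, the difference was 0.47 ± 0.10 (1.38-fold, adjusted p = 0.0989). Cers2, the ceramide synthase for very long acyl chains, ran from 8.97 to 9.98 in IPO and 8.88 to 10.22 in IPC+IPO, against 7.04 to 9.63 in IRI and 8.69 to 9.85 in IPC. Its pooled difference was 0.645 ± 0.156 (1.56-fold, adjusted p = 0.0989), with 10 postconditioned animals above every other ischemic animal. Sphk1, which phosphorylates sphingosine, went the other way at -0.22 ± 0.07, and Asah1, an acid ceramidase, was at 0.32 ± 0.13. Over the 16 measured genes of the sphingolipid list, 9 lay above 0, with a median difference of 0.06. At an unadjusted p under 0.05, 5 were higher (31.2%) and 1 lower (6.25%), beside 12.8% and 11.7% of all genes. With spread as a covariate 2 were higher and 3 lower, beside 3.54% and 4.43% of all genes, with a median of 0.01.

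Hyal1, the lysosomal enzyme that degrades hyaluronan, was among the 23 genes beyond 1.5-fold. It ran from 5.97 over 7.02 to 7.96 in IRI and from 6.74 over 7.61 to 8.34 in IPC. It ran from 7.48 over 8.50 to 8.77 in IPO and from 6.47 over 8.11 to 8.92 in IPC+IPO. Here IPO lay mostly above IRI, with 8 animals beyond its range, whereas IPC+IPO overlapped IPC. Pooled over both settings, the difference was 0.79 ± 0.175 (1.72-fold, 95% interval 0.43 to 1.14, adjusted p = 0.0989). Arsk, a lysosomal sulfatase, was higher by less, at 0.40 ± 0.09, and exceeded the median of the animals without postconditioning in 19 of 20 animals. Lamp2, a lysosomal membrane protein, was at 0.31 ± 0.10. No list of lysosomal genes was tested.

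Among the other genes of smallest p, most were higher. Slc31a1, the main copper importer, differed by 0.40 ± 0.09, and Nqo2, a quinone reductase, by 0.55 ± 0.135. Ch25h, which makes 25-hydroxycholesterol, was higher by 0.54 ± 0.13. Anp32a, a nuclear acidic phosphoprotein, was higher by 0.54 ± 0.13, Pygo2, a Wnt coactivator, by 0.51 ± 0.125, and Tnfsf13, the cytokine APRIL, by 0.35 ± 0.08. Nxpe4 differed by 0.49 ± 0.11, Poglut2, which adds glucose to secreted proteins, by 0.42 ± 0.10, and Jam2, a junctional adhesion molecule, by 0.31 ± 0.07. Stx11, a syntaxin of immune cell granule release, was lower by 0.24 on the log2 scale, at a low level (group medians 3.85 to 4.27). Hk2, a hexokinase of low abundance in liver, had a pooled difference of -0.29 ± 0.07, and 8 IPO animals lay below every IRI animal.

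The 20 genes of smallest p were chosen by the pooled p, which favours genes of the same direction in both settings, so the following counts only describe them. All 20 had the same direction with and without preconditioning, against 53.3% of all genes, and 19 had the larger difference without it. All 20 were called for IPO against IRI, against 22.8% of all genes, and 6 had an unadjusted p under 0.05 for IPC+IPO against IPC. With spread as a covariate all 20 kept their sign at a smaller size and an unadjusted p under 0.05, and 0 were called. All 20 were called in the pooled effect without IPC+IPO animal 38, without IRI animal 1, and without IRI 7 and IPC+IPO 38 together.

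**Figure D2:**
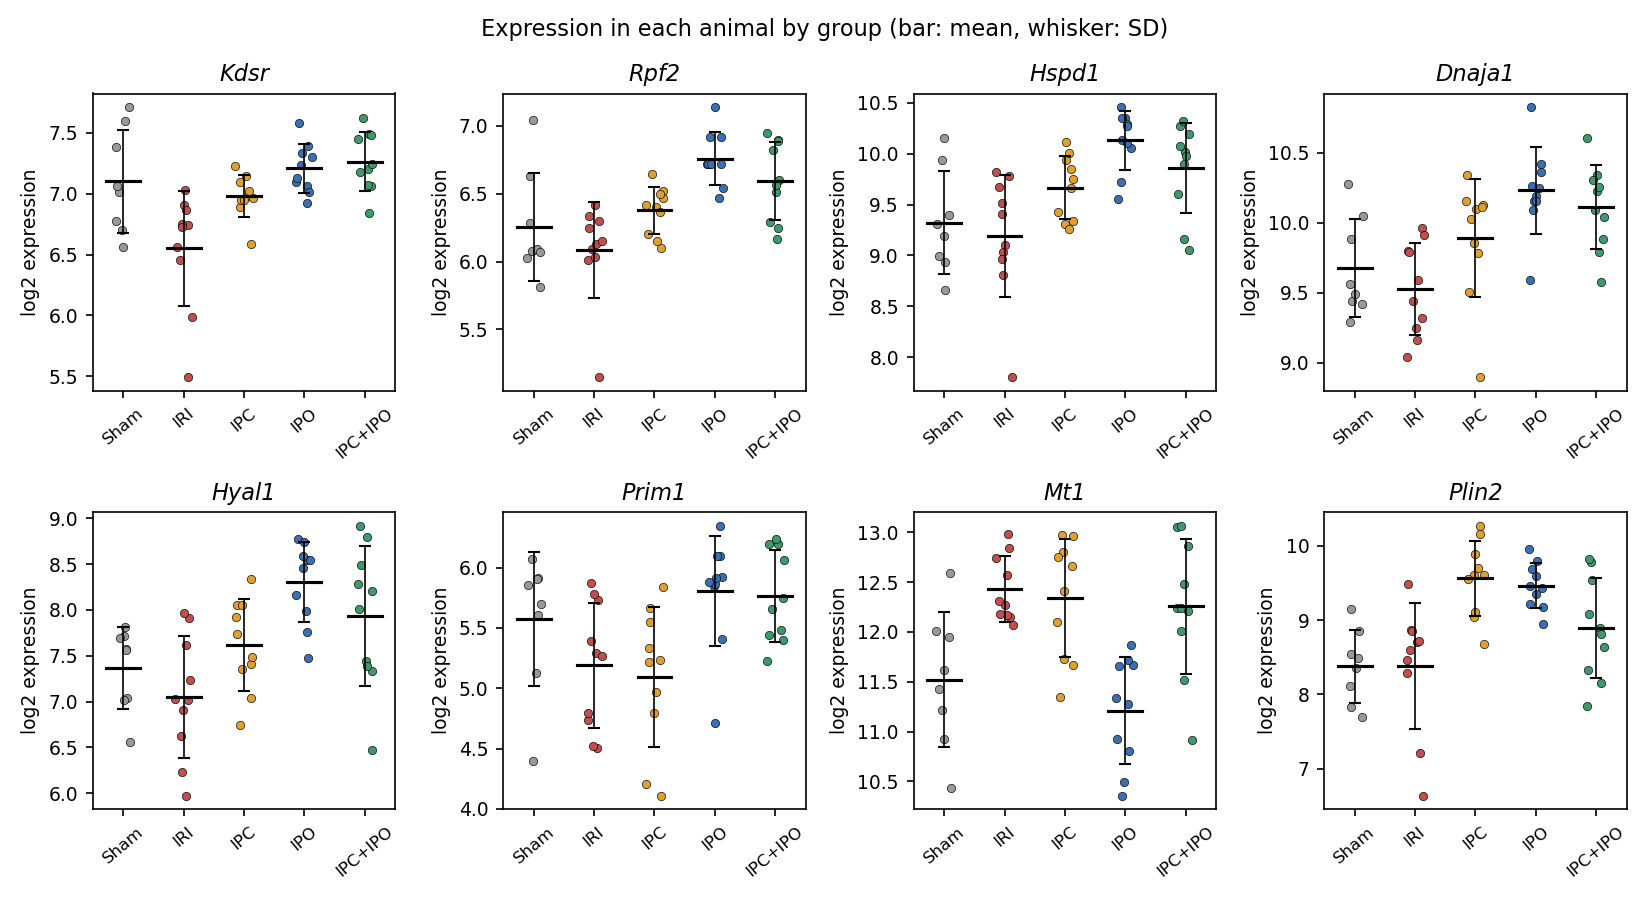
Log2 expression (y axes) of 8 genes in each rat by group (x axes), 1 point per rat, with the mean as a bar and the SD as a whisker. For Kdsr and Prim1 both postconditioned groups sit above their counterparts, for Mt1 all 10 IPO points lie below every IRI point while IPC+IPO overlaps IPC, and for Plin2 IPO lies above IRI but IPC+IPO below IPC.

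The pooled value joins 2 settings of postconditioning that gave unlike counts. Without preconditioning (IPO against IRI), 3307 genes were called (22.8%), and 6450 (44.5%) had an unadjusted p under 0.05. With it (IPC+IPO against IPC), 0 genes were called (0%) in limma, 235 (1.62%) had an unadjusted p under 0.05, and the smallest adjusted p was 1. The SD of the log2 differences over genes was 0.304 without and 0.111 with preconditioning, at the same median standard error of 0.119. The 2 settings share no array; across genes their differences correlated weakly (r = 0.066, rho = 0.086, a description over genes), and 53.3% of genes had the same sign. The direct test of the difference between the settings called 0 genes (0%) in limma, with 2942 (20.3%) at an unadjusted p under 0.05 and a smallest adjusted p of 0.166. No gene was thus shown to differ between the settings, whatever their counts. The count without preconditioning varied with single arrays: it was 395 without IRI 7, 5345 without IRI 1, 1744 without IRI 8 and 1771 without IRI 9. It was 1828, 1994, 1924, 1833 and 2017 without IPO 22, 23, 26, 27 and 28. It was 2 with spread as a covariate, Mt1 and Mt2A, and those 2 genes were lower.

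**Figure D3:**
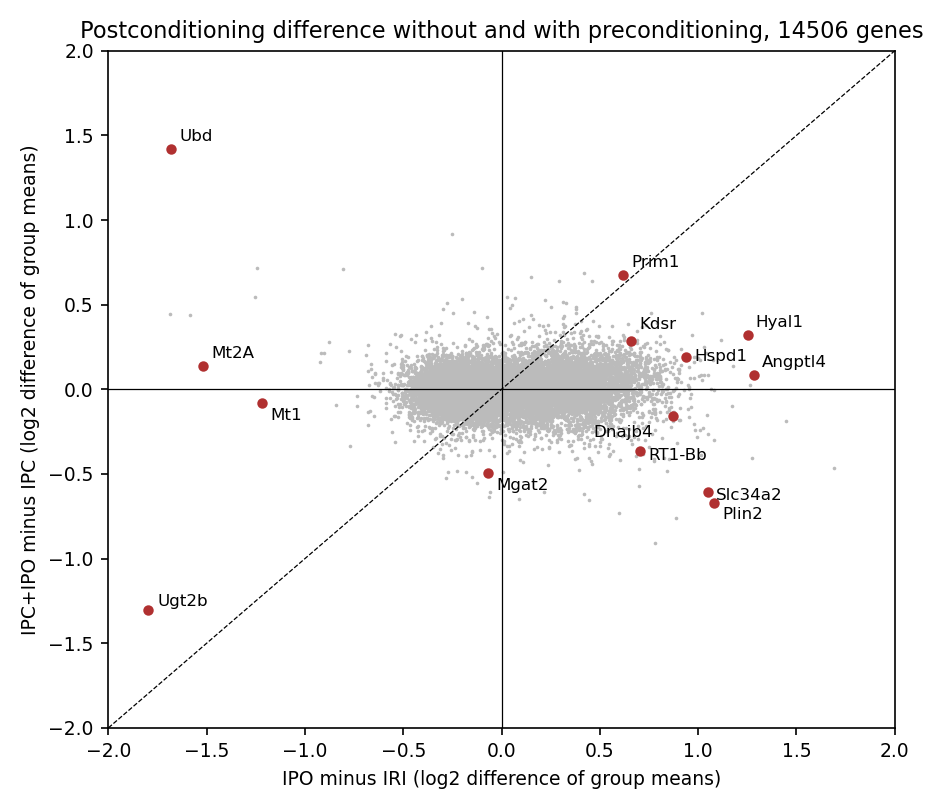
Log2 difference of group means for IPO minus IRI (x axis) and for IPC+IPO minus IPC (y axis), 1 point per gene of 14506, with named genes in red and the line of equal differences dashed. The cloud is wide along x (SD 0.304) and narrow along y (SD 0.111), Prim1 lies on the line, and Plin2 and Ubd lie in the quadrants of opposite sign.

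Few genes had an unadjusted p under 0.05 in both settings. There were 80 of them, which is 1.24% of the 6450 genes with such a p without preconditioning and 34% of the 235 with it. The latter share is below the 44.5% of all genes with such a p without preconditioning. Of the 80, 51 were in the same direction (0.352% of all genes), 27 higher and 24 lower, and 29 in opposite directions (0.2%). None of these was called in the pooled effect. With spread as a covariate 39 genes had such a p in the same direction in both settings, and 10 of the 51 were among them.

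Prim1, Arg1, Ndufb3, Creb1, Igfbp2, Adgrf5 and Oit3 are among those 51. Prim1, the catalytic subunit of DNA primase, had similar differences in both settings. It ran from 4.51 over 5.28 to 5.87 in IRI and from 4.11 over 5.23 to 5.84 in IPC. It ran from 4.71 over 5.90 to 6.35 in IPO and from 5.22 over 5.70 to 6.24 in IPC+IPO. The differences were 0.62 ± 0.21 without and 0.67 ± 0.21 with preconditioning, and 18 of 20 postconditioned animals lay above the median of the rest. The sham median was 5.78, near that of the postconditioned groups. Prim1 is a gene of dividing cells. Its level in sham and postconditioned livers was close to the array medians of 5.78 to 5.92. In IRI and IPC it averaged 5.19 and 5.09, near 5.19, the upper limit of the third of genes of lowest mean level.

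Arg1, the arginase that ends the urea cycle, differed by 0.255 ± 0.116 without and 0.25 ± 0.12 with preconditioning. Its medians were 10.72 in IPO and 10.89 in IPC+IPO, against 10.44 in IRI and 10.63 in IPC, and 10 postconditioned animals exceeded every other ischemic animal. Ndufb3, an accessory subunit of respiratory complex I, differed by 0.315 ± 0.128 and 0.32 ± 0.13. Its medians were 10.87 in IPO and 10.84 in IPC+IPO, against 10.53 in IRI and 10.70 in IPC, and all 20 postconditioned animals lay above the median of the others. Creb1, the cyclic AMP response factor, differed by 0.305 ± 0.112 and 0.25 ± 0.11. Igfbp2, an insulin-like growth factor carrier secreted by hepatocytes, was lower in both settings, at -0.25 ± 0.10 and -0.26 ± 0.10, and all 20 postconditioned animals lay below the median of the others. Creb1 and Igfbp2 were picked after their values were seen.

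Adgrf5, a receptor of endothelium picked after its values were seen, differed by 0.38 ± 0.17 without and 0.48 ± 0.17 with preconditioning. Fcgr2b, the inhibitory Fc receptor of sinusoidal endothelium, had medians of 8.62 in IPO and 8.69 in IPC+IPO, against 8.13 in IRI and 7.99 in IPC. Its differences were 0.31 ± 0.19 and 0.52 ± 0.19, the former above an unadjusted p of 0.05, so it was not among the 51. Oit3, a secreted protein of the same cells, differed by 0.33 ± 0.14 and 0.30 ± 0.14. Over the 12 measured endothelial markers, 6 were higher (50%) and 1 lower (8.33%) at an unadjusted p under 0.05, beside 12.8% and 11.7% of all genes. Their median differences were 0.23 without and 0.15 with preconditioning. The lower one was Egfl7, a secreted vessel factor, at -0.325 ± 0.098, and Pecam1, Cdh5 and Tie1, present in all endothelium, were at 0.05, -0.03 and 0.01. With spread as a covariate the list's median pooled difference was 0.06, with 3 higher and 1 lower, beside 3.54% and 4.43% of all genes.

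Plin2 was one of the 29 genes whose differences had opposite signs. Plin2, which coats lipid droplets, ran from 6.63 over 8.65 to 9.48 in IRI and from 8.95 over 9.45 to 9.95 in IPO. It ran from 8.68 over 9.61 to 10.27 in IPC and from 7.85 over 8.85 to 9.82 in IPC+IPO. All 10 IPO animals exceeded the IRI median, and 8 of 10 IPC+IPO animals did not exceed the IPC median. The differences were 1.08 ± 0.25 and -0.67 ± 0.25. The difference between them was -1.75 ± 0.36, the smallest p of that test, with an adjusted p of 0.166. Either intervention alone thus went with a median above the sham median of 8.42 by over 1 log2 unit, and the 2 together with 8.85. Without IRI animal 1 this difference was -1.87 and was called, at an adjusted p of 0.0375. The other 39 of the 40 fits that left out 1 array called 0 genes in this test. With spread as a covariate the difference for Plin2 was -1.41 ± 0.33, at an adjusted p of 0.343.

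The 4 genes next to Plin2 in the test of the difference were Dnajb4, Pinx1, Gar1 and Lsm12. Dnajb4, a heat shock co-chaperone, differed by 0.87 ± 0.16 without and -0.16 ± 0.16 with preconditioning. Pinx1, a nucleolar telomerase inhibitor, differed by 0.64 ± 0.11 and -0.06 ± 0.11, and Gar1, a protein of the H/ACA particles that modify ribosomal RNA, by 0.48 ± 0.10 and -0.13 ± 0.10. Lsm12 differed by 0.43 ± 0.08 and -0.09 ± 0.08. Each had an adjusted p of 0.166 for the difference. Among the fits that left out 1 array, each was called only without IRI animal 1, at 0.0453. With spread as a covariate their adjusted p ran from 0.388 to 0.407. In all 4 the medians of IPC, IPO and IPC+IPO were above that of IRI.

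Ubd, Slc34a2 and RT1-Bb were picked after their values were seen. Ubd, the ubiquitin-like modifier FAT10, had medians of 4.76 in IPO and 7.34 in IRI, but of 6.99 in IPC+IPO and 4.99 in IPC, with the single animals spread from 4.63 to 9.35 in IPC+IPO. Its differences were -1.68 ± 0.54 and 1.42 ± 0.54, and its pooled difference was -0.13 ± 0.38. Slc34a2, a phosphate transporter, differed by 1.05 ± 0.295 and -0.605 ± 0.295, and RT1-Bb, an MHC class II chain, by 0.70 ± 0.18 and -0.37 ± 0.18. For all 3 the animals of the compared groups overlapped.

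Heat shock genes were mostly on the higher side. The HSP70 genes Hspa1a, Hspa1b and Hspa1l, and Ahsa1, were on the list but not among the 14506 genes read. Of 22 measured cytosolic chaperone genes, 11 were higher and 0 lower at an unadjusted p under 0.05, beside 12.8% and 11.7% of all genes, and 0 were called. Their median pooled difference was 0.20 against -0.02 over all genes, with 0.33 without and 0.03 with preconditioning. In the covariate fit 5 were higher and 0 lower, beside 3.54% and 4.43% of all genes, and the median was 0.08. Leaving out IPC+IPO animal 38 gave 8 called, all higher (7.02% of all genes), and leaving out IRI animal 7 as well gave 2 (1.45%).

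Dnaja1, a co-chaperone of HSP70 that feeds it unfolded proteins, ran from 9.04 over 9.52 to 9.96 in IRI and from 8.90 over 10.06 to 10.34 in IPC. It ran from 9.59 over 10.22 to 10.82 in IPO and from 9.58 over 10.16 to 10.60 in IPC+IPO. Of 10 IPO animals 9 lay above every IRI animal, while IPC+IPO overlapped IPC. Dnaja1 had a pooled difference of 0.46 ± 0.11 (1.38-fold, adjusted p = 0.0989). Dnajb1, the partner of HSP70 in heat shock, was at 0.64 ± 0.18, and ran from 6.57 to 9.39 within IPO alone. Hsp90aa1, the inducible HSP90, was at 0.53 ± 0.14, Hsph1, an exchange factor of HSP70, at 0.385 ± 0.101, and Hspb1, a small heat shock protein, at 0.70 ± 0.25. Hsp90ab1, the constitutive HSP90, was at 0.075, and Hspa8, constitutive HSC70, at 0.185, both above an unadjusted p of 0.05.

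Hspd1, the mitochondrial chaperonin HSP60, ran from 7.80 over 9.26 to 9.82 in IRI and from 9.26 over 9.71 to 10.12 in IPC. It ran from 9.56 over 10.20 to 10.46 in IPO and from 9.05 over 10.00 to 10.32 in IPC+IPO. Of 20 postconditioned animals 18 lay above the median of the others. Hspd1 had a pooled difference of 0.565 ± 0.135 (1.48-fold, adjusted p = 0.0989), from 0.94 ± 0.19 without and 0.19 ± 0.19 with preconditioning. Its partner Hspe1 was at 0.16. Hspa9, the mitochondrial HSP70, was at 0.34 ± 0.11, and Phb1, a prohibitin of the inner membrane, at -0.31 ± 0.12. Of the 15 mitochondrial chaperones and proteases 8 were higher (53.3%) and 1 lower (6.67%) at an unadjusted p under 0.05 (median 0.20). The shares of all genes were 12.8% and 11.7%. Of 19 chaperones and stress genes of the endoplasmic reticulum 8 were higher (42.1%) and 1 lower (5.26%), with a median of 0.22. Hsp90b1, Pdia3, Calr and Canx were between 0.31 and 0.36. In the covariate fit the 2 medians were 0.04 and 0.05.

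Promoters of 3 of these chaperone genes are shown because they hold the letters that HSF1 is known to bind. Each window runs from 250 bases before to 50 after the start, read in the gene's direction from the RefSeq promoter table of build GRCr8. The motif searched, the heat shock element, was 3 alternating units, GAA, TTC and GAA, with 2 bases of any kind between neighbours, on both strands; its matches are in capitals.
Dnaja1: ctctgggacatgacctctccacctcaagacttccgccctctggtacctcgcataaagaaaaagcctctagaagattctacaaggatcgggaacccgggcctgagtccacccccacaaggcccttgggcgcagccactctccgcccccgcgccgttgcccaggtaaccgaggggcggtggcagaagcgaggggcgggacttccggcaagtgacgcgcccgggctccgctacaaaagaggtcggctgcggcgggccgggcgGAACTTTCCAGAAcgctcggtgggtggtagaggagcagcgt
Hsph1: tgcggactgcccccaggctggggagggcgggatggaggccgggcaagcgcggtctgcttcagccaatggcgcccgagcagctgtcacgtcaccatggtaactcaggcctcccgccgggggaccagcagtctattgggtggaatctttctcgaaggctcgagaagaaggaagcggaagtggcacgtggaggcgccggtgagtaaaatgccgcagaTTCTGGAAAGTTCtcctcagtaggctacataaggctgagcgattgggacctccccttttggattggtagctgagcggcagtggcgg
Hspd1: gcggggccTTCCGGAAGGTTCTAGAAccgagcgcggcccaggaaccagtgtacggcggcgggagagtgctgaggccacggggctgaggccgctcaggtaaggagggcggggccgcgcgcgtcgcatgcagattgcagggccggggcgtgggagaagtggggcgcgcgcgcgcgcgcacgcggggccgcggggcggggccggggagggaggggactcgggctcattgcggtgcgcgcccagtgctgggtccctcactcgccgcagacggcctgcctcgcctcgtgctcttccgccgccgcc

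The windows lie at chr5:60638154-60638453 (plus strand), chr12:10427118-10427417 (plus strand) and chr9:64083988-64084287 (minus strand). The match begins 9 bases after the start in Dnaja1 and 36 bases before it in Hsph1. In Hspd1 a pair of overlapping matches begins 242 bases before the start, on the side of its divergent neighbour Hspe1. Of 33469 promoters in the table, 267 (0.798%) held the motif. Among cytosolic chaperones 17 of 22 had a promoter in the table and 4 held it (Chordc1, Dnaja1, Hspa8 and Hsph1). Among mitochondrial chaperones 2 of 12 did (Hspd1 and Hspe1). Chordc1, Hspa8 and Hspe1 thus held it but are not shown, and Hsp90aa1, Dnajb1 and Hspb1 were not among the matches. Whether genes with the motif differed more was not tested. A match of letters is a description and shows no binding in these livers.

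The list of metallothioneins and zinc handling held a pair of lower genes of large size, Mt1 and Mt2A, though most of the genes of the list lay above 0 (8 of 11). Mt1, a zinc- and copper-binding protein, ran from 12.07 over 12.29 to 12.99 in IRI and from 10.35 over 11.31 to 11.87 in IPO. It ran from 11.35 over 12.54 to 12.98 in IPC and from 10.91 over 12.24 to 13.07 in IPC+IPO. Every IPO animal lay below every IRI animal, while IPC and IPC+IPO overlapped over almost their whole range. The pooled difference was -0.65 ± 0.17 (1.57-fold lower, 95% interval -0.998 to -0.31, adjusted p = 0.0989), made of -1.22 ± 0.24 without and -0.08 ± 0.24 with preconditioning. The test of the difference between these gave 1.14 ± 0.345 at an adjusted p of 0.205.

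Mt2A, the second liver metallothionein, ran from 9.71 to 11.37 in IPO and 11.47 to 12.56 in IRI, and from 10.52 to 12.89 in IPC+IPO and 9.81 to 12.68 in IPC. Its pooled difference was -0.69 ± 0.22 (adjusted p = 0.104), made of -1.52 ± 0.31 and 0.14 ± 0.31. The IPO medians of both genes, 11.31 and 10.50, lay below the sham medians of 11.52 and 11.15, and the IRI, IPC and IPC+IPO medians above them. Unlike the chaperones, both genes were further from 0 with spread as a covariate, at -0.75 ± 0.17 and -0.80 ± 0.22. For IPO against IRI that fit gave -1.41 ± 0.255 and -1.72 ± 0.33 (limma adjusted p = 0.0188 and 0.0216). They were the only 2 genes called there. Slc39a4, a zinc importer, was at 0.43 ± 0.14, and Slc30a10, an exporter of manganese, at 0.29 ± 0.14. Of the 11 genes of the list 2 were higher and 2 lower at an unadjusted p under 0.05.

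The promoters of Mt1 and Mt2A are shown because the genes lie side by side in these data and hold several metal response elements, the letters that MTF1 is known to bind. The motifs searched were TGCACNC and TGCGCNC on both strands, and matches are in capitals.
Mt1: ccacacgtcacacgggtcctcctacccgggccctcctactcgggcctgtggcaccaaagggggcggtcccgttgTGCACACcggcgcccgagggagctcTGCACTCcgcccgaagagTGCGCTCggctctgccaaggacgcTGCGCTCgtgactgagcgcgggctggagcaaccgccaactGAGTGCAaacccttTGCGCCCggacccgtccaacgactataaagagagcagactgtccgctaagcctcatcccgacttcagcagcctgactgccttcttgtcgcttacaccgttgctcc
Mt2A: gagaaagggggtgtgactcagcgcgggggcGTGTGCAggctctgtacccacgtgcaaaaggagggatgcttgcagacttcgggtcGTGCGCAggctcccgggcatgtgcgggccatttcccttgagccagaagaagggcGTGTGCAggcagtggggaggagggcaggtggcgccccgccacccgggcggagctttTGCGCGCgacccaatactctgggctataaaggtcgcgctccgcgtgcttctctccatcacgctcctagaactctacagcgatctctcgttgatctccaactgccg

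The windows, from the same table, lie at chr19:10832926-10833225 and chr19:10838659-10838958 on the minus strand. Mt1 held 6 matches and Mt2A 4. At least 1 match was found in 8110 of 33469 promoters (24.2%), and 4 or more in 147 (0.439%). In the zinc list 6 of 8 genes with a promoter in the table had a match (Mt1, Mt2A, Mt3, Mtf1, Slc30a1 and Slc39a1). Mt1 and Mt2A are neighbours and near-identical in function, and array probes can share signal between such copies.

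Genes of hepatocyte metabolism stood mostly on the higher side. Of 18 urea cycle and amino acid genes 10 were higher (55.6%) and 0 lower at an unadjusted p under 0.05, beside 12.8% and 11.7% of all genes. Their median differences were 0.45 without and 0.07 with preconditioning. Ass1, which makes argininosuccinate, ran from 10.51 over 11.68 to 12.00 in IRI and from 11.47 over 11.99 to 12.24 in IPC. It ran from 11.73 over 12.19 to 12.29 in IPO and from 11.28 over 12.03 to 12.28 in IPC+IPO, and its pooled difference was 0.37 ± 0.11. Cps1, which starts the cycle, was at 0.28 ± 0.11, Otc at 0.29, Got1 and Gpt, the 2 clinical transaminases, at 0.47 and 0.43, and Tat, tyrosine aminotransferase, at 0.36 ± 0.145. These are high-level genes, and the set of genes of highest level had a median of 0.14 by itself. With spread as a covariate the list's median was 0.10. In that fit 2 of 18 had an unadjusted p under 0.05, both higher, beside 3.54% of all genes.

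Fat burning and glucose genes showed a like picture. Angptl4, a PPAR target that inhibits lipoprotein lipase, ran from 6.37 over 7.52 to 8.53 in IRI and from 7.54 over 8.42 to 9.26 in IPC. It ran from 7.64 over 9.10 to 9.27 in IPO and from 7.04 over 8.88 to 9.30 in IPC+IPO. Its sham median was 7.28. Angptl4 had a pooled difference of 0.68 ± 0.205 (1.61-fold, adjusted p = 0.0989), from 1.28 ± 0.29 without and 0.085 ± 0.29 with preconditioning. Acadm and Hadha, enzymes of mitochondrial fatty acid oxidation, were at 0.33 ± 0.10 and 0.34 ± 0.12. Of 20 fatty acid oxidation genes 8 were higher (40%) and 0 lower (median 0.19), beside 12.8% and 11.7% of all genes. Of 19 gluconeogenic and insulin response genes 7 were higher (36.8%) and 0 lower (median 0.18). Of 19 lipid and cholesterol synthesis genes 2 were higher and 2 lower (10.5% each). There Scd, stearoyl-CoA desaturase, was at 0.63 ± 0.27, and Mvd and Cyp51 of the cholesterol path at -0.27 ± 0.11 and -0.23 ± 0.10. In the covariate fit the medians of these 3 lists were 0.05, -0.01 and -0.15.

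Secreted and transport proteins followed. Of 20 acute phase genes 10 were higher (50%) and 0 lower (median 0.14), beside 12.8% and 11.7% of all genes. The fibrinogen chains Fga and Fgb were at 0.19 ± 0.07 and 0.15 ± 0.05, and the endotoxin carrier Lbp at 0.37 ± 0.15. In the covariate fit none of the 20 had an unadjusted p under 0.05. Of 26 bile acid and drug metabolism genes 7 were higher (26.9%) and 2 lower (7.69%). Abcb11, the bile salt export pump, was at 0.33 ± 0.13, Slc10a1, the bile acid importer, at 0.21 ± 0.09, and the basolateral exporter Abcc4 at -0.21 ± 0.08. In the covariate fit 0 of these 26 genes were higher and 1 lower, beside 3.54% and 4.43% of all genes. The list's median was -0.002 there, against 0.12 as deposited.

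Cytosolic ribosomal protein genes lay mostly below 0, with 19 of 67 above it. Of the 67 measured genes 10 were lower and 1 higher at an unadjusted p under 0.05, close to the 11.7% of all genes that were lower. Rpl36 had medians of 10.61 in IPO and 10.67 in IPC+IPO, against 11.24 in IRI and 10.86 in IPC, and a pooled difference of -0.325 ± 0.082. Rpsa, which doubles as a laminin receptor, had medians of 11.16, 11.18, 11.43 and 11.34 in the same order, and 18 of 20 postconditioned animals lay below the median of the others. Its difference was -0.35 ± 0.17 without and -0.34 ± 0.17 with preconditioning. The list's median was -0.07, and -0.12 with spread as a covariate, where 14 were lower and 1 higher, beside 4.43% and 3.54% of all genes. In complex I, 4 of 33 subunits were higher (12.1%), close to the 12.8% of all genes, and 1 lower (3.03%). Ndufs1, its largest subunit, was at 0.51 ± 0.14. The median of the complex I list, 0.06, came from 0.001 without and 0.12 with preconditioning. With spread as a covariate it was -0.02, from -0.145 and 0.12, and again 4 were higher and 1 lower, beside 3.54% and 4.43% of all genes.

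Survival signalling is the pathway most often tied to postconditioning. Of 18 measured genes 7 were higher (38.9%) and 0 lower at an unadjusted p under 0.05 (median 0.16), beside 12.8% and 11.7% of all genes. With spread as a covariate the median was 0.04 and 1 gene was higher, beside 3.54% of all genes. Pik3cb, a catalytic subunit of PI3 kinase, was at 0.44 ± 0.14, Rps6kb1, the S6 kinase, at 0.345 ± 0.131, and Gsk3b, a kinase of the mitochondrial pore path, at 0.34 ± 0.15. Akt1 and Mtor were at 0.03 and 0.13. These arrays measure transcripts, and the phosphorylation through which this pathway acts was not measured.

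As deposited, stress and immediate-early genes gave counts near or below the shares of all genes, 12.8% higher and 11.7% lower. Of 26 AP-1 and immediate-early factors 1 was higher and 2 lower: Zfp36, which destabilises cytokine mRNA, at 0.54 ± 0.25, and Maff and Egr3 at -0.40 ± 0.14 and -0.14 ± 0.07. Of 15 MAPK phosphatases and feedback inhibitors 0 were higher and 1 lower, of 17 integrated stress response genes 0 and 0, and of 19 p53 and apoptosis genes 1 and 1. Mcl1, an anti-apoptotic BCL2 relative, was the higher one, at 0.39 ± 0.17. Of 25 hypoxia and glycolysis genes 3 were higher and 2 lower, with Ero1a at 0.37 ± 0.12 and Bnip3 at -0.35 ± 0.12. Of 25 antioxidant genes 3 were higher and 2 lower: Prdx6, a peroxiredoxin, was at 0.43 ± 0.115 and Hmox1, heme oxygenase, at 0.36 ± 0.14. Of 21 vasoactive and adenosine genes 3 were higher and 1 lower, the lower being Edn1, endothelin, at -0.17 ± 0.06. Of 21 autophagy genes 3 were higher and 1 lower. With spread as a covariate the shares of all genes were 3.54% higher and 4.43% lower. In that fit 0 integrated stress response genes were higher and 3 lower. Hypoxia and antioxidant genes each had 1 higher and 3 lower, and AP-1 and immediate-early factors 0 and 2. MAPK phosphatases had 1 and 1, autophagy genes 1 and 0, and the p53 and vasoactive lists 0 and 0.

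Inflammatory genes gave counts at or below the shares of all genes. Of 26 such genes 3 were higher (11.5%) and 2 lower (7.69%), beside 12.8% and 11.7% of all genes, and 0 were called. Il6 had low levels throughout, with medians of 3.28 in IPO and 3.46 in IPC+IPO, against 3.50 in IRI and 3.59 in IPC, and 11 postconditioned animals lay below every other ischemic animal. Il6 had a pooled difference of -0.31 ± 0.10 (adjusted p = 0.11), with IPC animal 18 at 5.43 and IPC+IPO animal 38 at 4.08 far above their groups. The chemokine Ccl3 and the cytokine Il1a were at 0.45 ± 0.17 and 0.50 ± 0.19. Of 25 interferon-stimulated genes 6 were higher (24%), above the 12.8% of all genes, and 0 lower. Their median was 0.16, from 0.31 without and 0.02 with preconditioning, and Rig1, a sensor of viral RNA, led at 0.49 ± 0.16. In the covariate fit 2 were higher and 0 lower, and the median was 0.04. Of 18 glucocorticoid-induced genes 4 were higher (22.2%) and 2 lower (11.1%), the lower being Mt1 and Mt2A. Fkbp5, a glucocorticoid receptor chaperone, was at 0.32 ± 0.12. With spread as a covariate 1 of the 18 was higher and 3 lower, beside 3.54% and 4.43% of all genes. Their median was 0.08 as deposited and -0.04 in that fit.

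Clock genes varied widely within groups, and the labels give no hour of sampling. Clock itself was at 0.39 ± 0.18, from 0.95 ± 0.25 without and -0.17 ± 0.25 with preconditioning. Dbp, a clock output factor, was at -0.62 ± 0.36 (95% interval -1.34 to 0.10), and ran from 6.25 to 10.22 within IPC+IPO. Its differences were -1.69 ± 0.505 without (limma adjusted p = 0.0222) and 0.45 ± 0.505 with preconditioning. Without preconditioning 22.8% of all genes were called. With spread as a covariate that difference was -1.53 ± 0.55 for Dbp (limma adjusted p = 0.292). For Clock it was 0.44 ± 0.195 (0.432). In the pooled effect 2 of 14 core clock genes were higher (14.3%) and 0 lower, and of 16 output genes 2 (12.5%) and 0. The shares of all genes were 12.8% and 11.7%. With spread as a covariate each list had 0 higher and 1 lower, beside 3.54% and 4.43% of all genes.

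**Figure D4:**
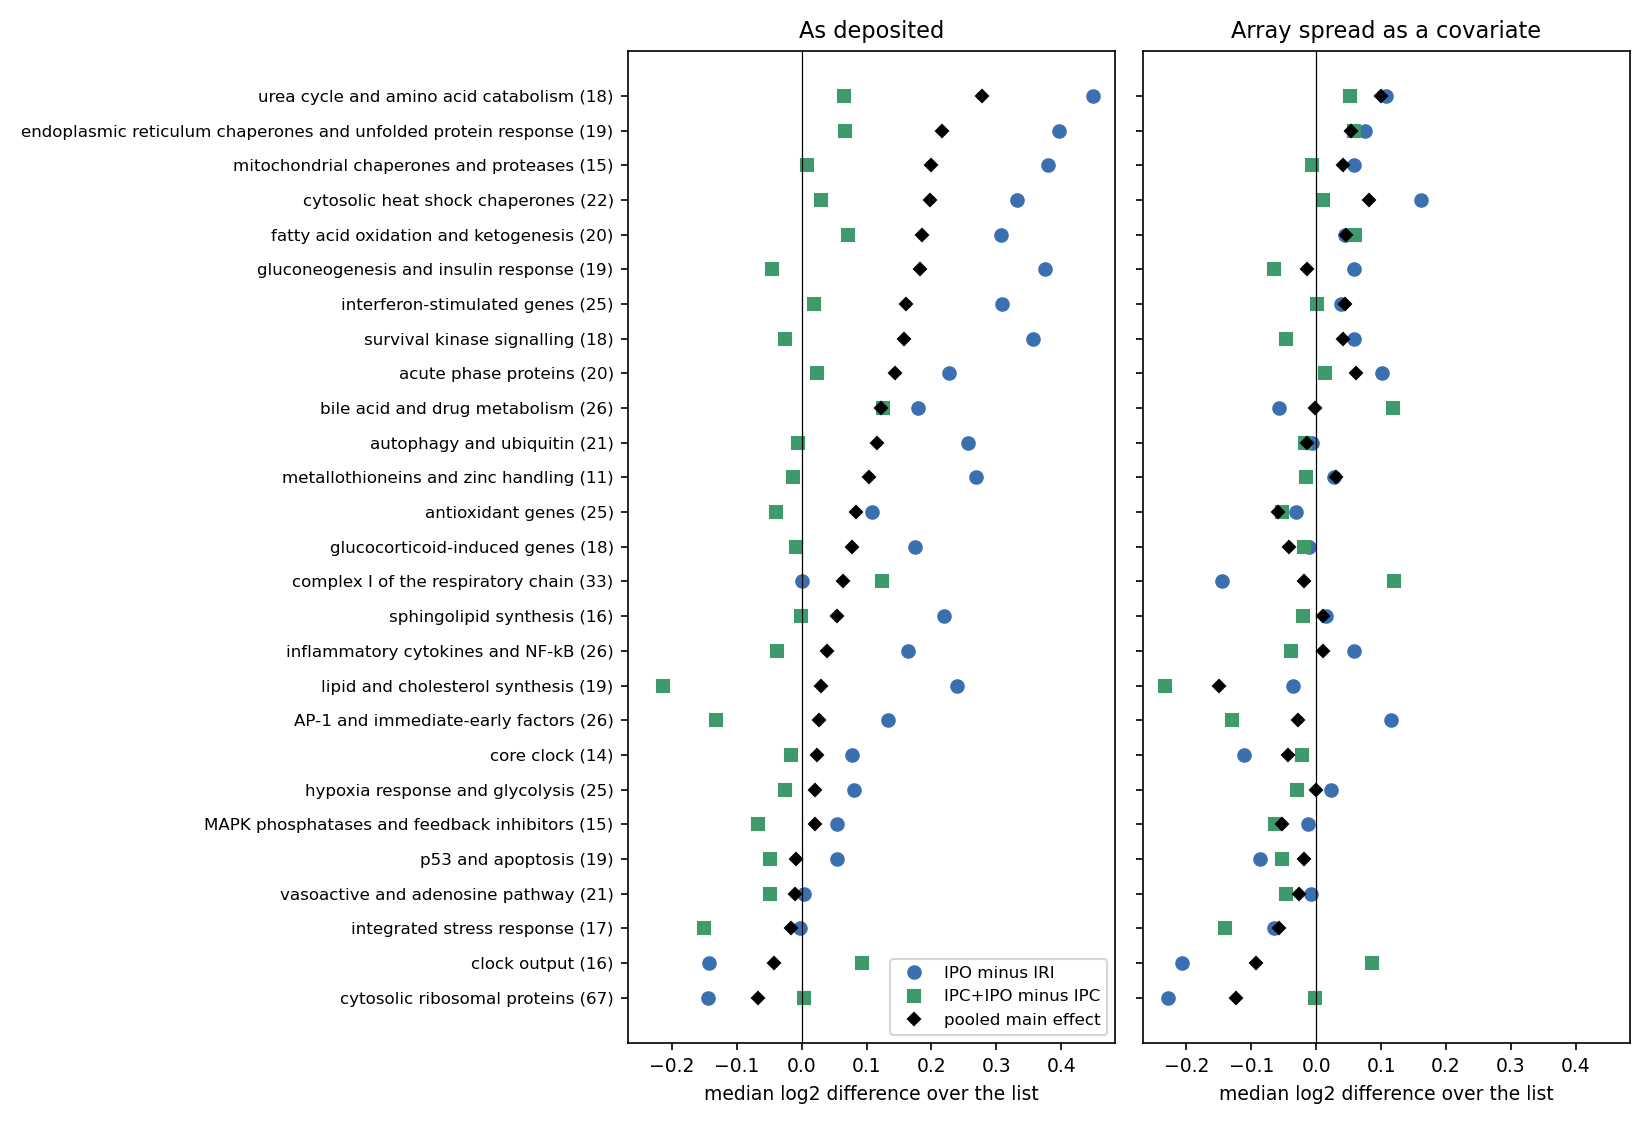
Median log2 difference (x axes) over each gene list (rows, with the number of measured genes) for IPO minus IRI (circles), IPC+IPO minus IPC (squares) and the pooled effect (diamonds), as deposited on the left and with array spread as a covariate on the right. Urea cycle and chaperone lists sit at the top with pooled medians of 0.20 to 0.28 that shrink to 0.04 to 0.10 on the right, and cytosolic ribosomal proteins are at the bottom with pooled medians of -0.07 and -0.12.

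Markers of the cells in a liver biopsy were counted in the same way, and 0 of them were called in any list. Their part in the results above was not tested. The counts are read beside the 12.8% of all genes that were higher and the 11.7% that were lower. Of 14 hepatocyte markers 6 were higher and 1 lower (median 0.14), and the mean level of the list per array ran from 11.87 to 12.135 in IPO and 11.40 to 12.17 in IPC+IPO, against 11.56 to 12.08 in IRI and 11.695 to 12.185 in IPC. Of 14 Kupffer cell and macrophage markers 3 were higher and 0 lower, with list means from 7.005 to 8.35 in IPO and 7.22 to 8.43 in IPC+IPO, against 6.81 to 8.16 in IRI and 7.61 to 8.20 in IPC. Of 13 neutrophil markers 1 was higher, S100a8 at 0.46 ± 0.20, and 2 lower, Elane and Mpo at -0.21 ± 0.06 and -0.22 ± 0.08. Stellate (16), cholangiocyte (9), lymphocyte (14) and erythroid and platelet (10) lists had 1, 1, 0 and 0 higher and 0, 1, 1 and 0 lower, at or below those shares. With spread as a covariate hepatocyte markers were 1 higher and 1 lower, Kupffer cell and macrophage markers 0 and 0, and neutrophil markers 1 and 1. All groups overlapped in the mean level of each list.

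Mgat2, a Golgi enzyme that builds complex N-glycans, was the gene called in the covariate fit. It ran from 8.23 over 9.0 to 9.41 in IRI and from 8.76 over 9.11 to 9.31 in IPC. It ran from 8.40 over 8.91 to 9.19 in IPO and from 7.49 over 8.67 to 9.0 in IPC+IPO. Its difference was -0.495 ± 0.137 with preconditioning, the smallest p of that setting (unadjusted limma p = 0.000738), and -0.07 ± 0.14 without. The test between the settings gave an adjusted p of 0.231, and 7 IPC+IPO animals lay below every IPC animal. The pooled difference was -0.28 ± 0.10 (adjusted p = 0.122), and -0.42 ± 0.07 with spread as a covariate (adjusted p = 0.00998). It was called as well after renewed quantile normalization, at -0.39 ± 0.07 (adjusted p = 0.0098). Without IPC+IPO animal 38, its lowest array, the difference was -0.22 without the covariate.

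Whether genes were called in the pooled effect turned on few arrays. Leaving out each ischemic array in turn gave 0 called genes in 36 of 40 fits. Without IPC+IPO animal 38 there were 1607 (11.1%), with 1019 higher (7.02%) and 588 lower (4.05%), without IRI animal 1 430, without IPC+IPO animal 37 9 and without IRI animal 6 3. Without IRI animal 7 and IPC+IPO animal 38 together, the 2 arrays that stood apart, 269 were called (1.85%), with 211 higher (1.45%) and 58 lower (0.4%). With array weights estimated in limma, 5582 were called. Rpf2 was at 0.46 and 0.41 without animal 38 and without both arrays (adjusted p = 0.02 and 0.0217), and Hspd1 at 0.61 and 0.53 (0.0283 and 0.0374).

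**Figure D5:**
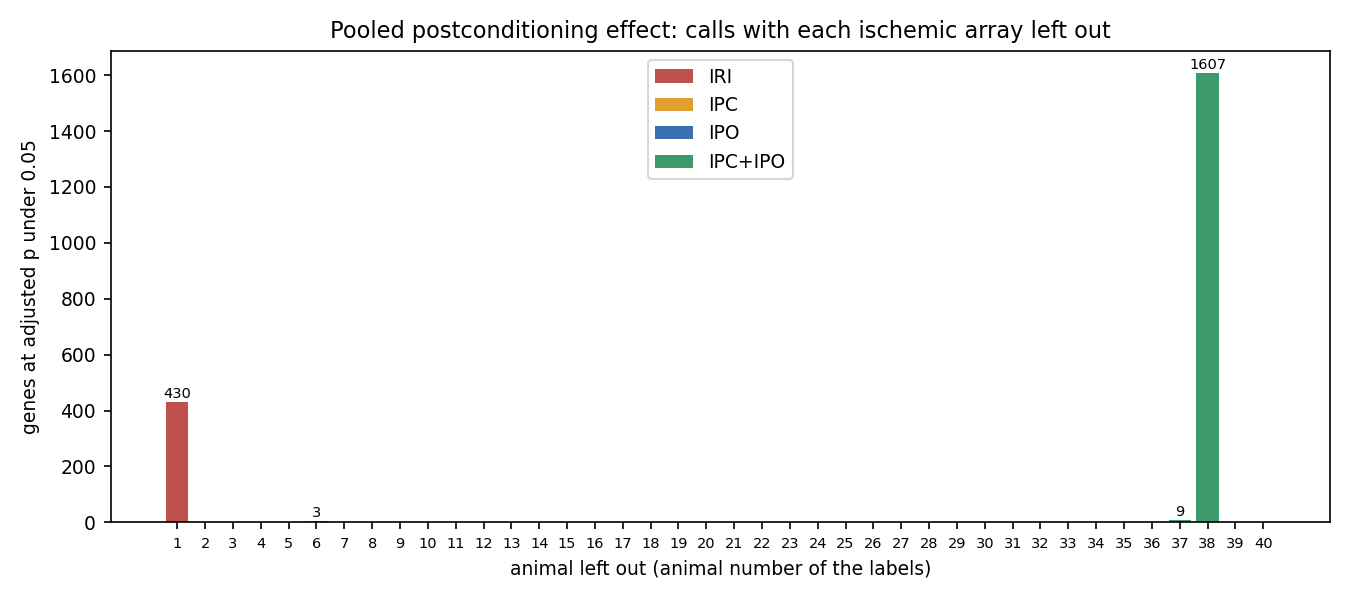
Number of genes at an adjusted p under 0.05 in the pooled effect (y axis) when each ischemic array is left out in turn (x axis, animal number), coloured by group, with counts above the bars. The count is 0 for 36 of the 40 arrays and 1607 without IPC+IPO animal 38.

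The largest pooled difference of any gene belonged to Ugt2b, picked after its values were seen, a UDP-glucuronosyltransferase of steroid and drug clearance. Its animals formed 2 separate sets, 10 of 48 at or below 5.99 and the rest at or above 9.23. The lower set held 3 IPO animals (3.96 to 4.63), 3 IPC+IPO animals (5.32 to 5.70) and 4 of 8 sham animals (4.58 to 5.99), but 0 of 10 IRI and 0 of 10 IPC animals. The medians of the 4 ischemic groups, 10.76, 10.79, 10.75 and 10.81, were nearly equal. The pooled difference was -1.55 ± 0.685 (adjusted p = 0.17), and the 6 low postconditioned animals lay below every IRI and IPC animal. Members of this family are close copies of each other, and the probe set's signal may be shared among them.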

How the data were processed

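Liver RNA of 48 rats was measured on Affymetrix arrays, 1 per animal. The authors deposited log2 expression values per probe set, made with RMA in Affymetrix Expression Console, per the submitters' processing notes; versions and hybridization batches are not given in the sources used here. Of 29215 probe sets, 15310 had 1 gene symbol in the platform annotation, 323 several and 13582 none; 15279 matched RefSeq by gene ID. Each of 14506 genes was read from its probe set of highest mean, with no filter on dim genes.

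Groups came from the titles. All 5 groups entered 1 fit with limma 3.58.1 in R 4.3.3 (lmFit and eBayes, two-sided, 43 residual degrees of freedom), with contrasts for the pooled effect, IPO against IRI, IPC+IPO against IPC, and their difference. P-values were adjusted over all genes by Benjamini-Hochberg, with 0.05 as the threshold. Spread was compared with 100000 permutations within preconditioning. The script was tested on simulated data. Named genes were the 20 of smallest p in the pooled effect, the 5 of smallest p in each other contrast and the 4 of smallest p in each list, with predicted loci skipped; the text gives a selection and says where a gene was picked after its values were seen. Ncl, Utp25, Hspb1 and the other list members given beside those of smallest p lie outside that rule and were also picked after their values were seen. Members and lists were chosen with earlier results of these data known. Alternatives were other sets of samples, variance models, array weights, probe filters, scalings, array spread as a covariate and left-out arrays; leaving out IRI animal 7 and IPC+IPO animal 38 together was added after the data were seen. The number of arrays limits the precision.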

Additional observations from a re-analysis of the deposited data

Results flagged for a closer look

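Single animals far from the rest of their group were found in 34 of 216 groups of values tested with Dixon's ratio; chance alone gives about 1 in 20. Several fell on the same few arrays.

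IRI animal 7 was lowest of its group for Rpf2 (5.15), Hspd1 (7.80), Anp32a (5.87), Pygo2 (5.75) and Dnajb4 (5.16), and highest for Hk2 (5.74) and Igfbp2 (6.37). Its mean correlation with the other arrays was 0.888. IPC+IPO animal 38 was lowest for Nqo2 (7.32), Mgat2 (7.49) and Egfl7 (6.29) and highest for Il6 (4.08), with a mean correlation of 0.933. IPO animal 30 was lowest for Nqo2 (7.91), Mgat2 (8.40), Ass1 (11.73) and Rpsa (10.43), highest for Egfl7 (7.94), and lowest in array spread (1.75) and mean correlation (0.968).

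In the preconditioned group, animal 11 was lowest for Rbm34 (5.24) and Pygo2 (6.33), animal 12 was lowest for Arsk (4.48) and Mt2A (9.81) and highest for Ubd (8.38), animal 17 was lowest for Kdsr (6.58) and Slc39a4 (6.87), and animal 18 was highest for Igfbp2 (6.69) and Il6 (5.43). Single values stood apart for Ubd in IPO animal 22 (7.45, next highest 4.90), Anp32a in IPO animal 25 (8.00), Clock in IPO animal 24 (6.49), Rpl36 in IRI animal 1 (10.57) and Ndufb3 in IRI animal 10 (9.87).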

How the results depend on the processing

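No paired analysis was possible because each rat belongs to a single group and no number recurs across groups. In the pooled effect 0 genes were called; 1 was called with only the 4 ischemic groups in the fit (Rpf2), 5582 with array weights, 6 after renewed quantile normalization, 1 with array spread as a covariate, 269 without IRI 7 and IPC+IPO 38, and 0 to 1607 with 1 array left out. For IPO against IRI the 3307 genes became 6098 with array weights, 5033 over all probe sets, 1383 after renewed quantile normalization, 2 with the covariate and 0 without the 10 ischemic arrays of lowest spread, and 395 to 5345 with 1 array left out; without IRI 7 and IPC+IPO 38, 1518 were called. Its split of 1797 higher and 1510 lower was 2125 and 655 after centring arrays on their medians, and 1817 and 629 without the dimmest genes. For IPC+IPO against IPC 1 gene was called after renewed quantile normalization, and 0 to 0 with 1 array left out. The difference between the settings gave 189 with array weights and 0 to 8 with 1 array left out. The spread difference of 0.073 ran from 0.060 to 0.093 with 1 array left out. Of the pooled values of 52 named genes under the alternatives, 514 kept their direction and side of the threshold, 103 passed it, and 3 turned: Ubd to 0.19 without the 10 arrays of lowest spread and, with 1 array left out, from -0.280 to 0.041, and Slc34a2 to -0.013 with the covariate. The number of arrays and the spread between them limit what could be called; the cause of these changes was not tested.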

Other observations

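Some genes beyond 1.5-fold in the pooled effect were held by no list; those given here were picked after their values were seen, and no theme among them was tested. Ssb, the La protein that protects new RNA polymerase III transcripts, was at 0.66 ± 0.17, Snrpf, a core protein of spliceosomal particles, at 0.59 ± 0.20, and Srp54a, of the signal recognition particle, at 0.59 ± 0.16. Anp32e, a histone chaperone, was at 0.59 ± 0.15 and Pdcd4, an inhibitor of translation initiation, at 0.62 ± 0.18. Rab14, a GTPase of endosomes, was at 0.625 ± 0.173, Sqor, the mitochondrial enzyme that oxidises hydrogen sulfide, at 0.735 ± 0.273, and Retsat, which saturates retinol, at 0.645 ± 0.222. Each had the same direction in both settings, and in each the difference was larger without preconditioning. Slc6a6, the taurine transporter, was at 0.61 ± 0.28 from 1.69 without and -0.47 with preconditioning.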
